A study of Mus musculus with 12 samples.

Results

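The 8 genes Tlr7, Sdc3, Mpeg1, Car2, Asb2, Bcat1, Tpst1 and Gpsm1 were chosen by their read counts in non-stimulated CD8 T cells, where their transcripts were far lower with a Batf3 vector than with a control vector. They are 8 of 55335 genes in the count table and 8 of the 15702 genes that passed the filter on low counts. Their non-stimulated values are therefore given as a description with no test. The question put to the data was whether the fall was also present after stimulation, in libraries that the choice did not use.

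The study used splenic CD8 T cells of C57BL/6 OT-I mice, a strain with a transgenic receptor specific for ovalbumin. The age of the mice was not given. All groups share this receptor, retroviral transduction and sorting for transduced cells. Batf3 stimulated cells received the vector carrying Batf3 and 6 h with antibodies to CD3e (plate-bound) and CD28, each at 1 µg/ml. Control stimulated cells received the empty vector and the same antibodies. Batf3 non-stimulated cells received the vector carrying Batf3 and 6 h with IL-15 at 100 ng/ml, and control non-stimulated cells the empty vector and IL-15. IL-15 is named only for the non-stimulated cultures, so effects of the antibodies and of IL-15 on a difference between cultures cannot be told apart. Each of the 4 groups had 3 libraries, which the study calls technical replicates, so every SD, SE and p-value here covers technical spread and not the spread between mice or transductions.

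BATF3 is a basic leucine zipper factor of the AP-1 family that binds DNA with JUN proteins and, at composite elements, together with IRF factors. The 8 genes belong to different pathways. TLR7 is an endosomal receptor for single-stranded RNA, best known from plasmacytoid dendritic cells, B cells and macrophages, and perforin-2, the product of Mpeg1, is a pore-forming protein of phagocytes and other cells that acts against bacteria. Syndecan-3, the product of Sdc3, is a transmembrane proteoglycan that carries heparan sulfate chains, and the other genes encode enzymes, a ubiquitin ligase subunit and a regulator of G proteins.

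Batf3 itself averaged 427 ± 11.9 CPM in Batf3 stimulated libraries and 18.4 ± 0.735 CPM in control stimulated libraries, and 470.4 ± 3.68 CPM in Batf3 non-stimulated libraries and 6.77 ± 0.833 CPM in control non-stimulated libraries (SD, n = 3 each; CPM, the usual depth-scaled count, here on TMM-scaled library sizes). Counts per gene hold the transcripts of the vector and of the endogenous gene together. Library totals lay between 14211564 and 14468231 counts, at which 3 counts stood for 0.191 to 0.229 CPM, a floor that covers counting error only. The summed level of 10 CD8 T cell markers lay between 2968 and 3753 CPM in every library.

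In GRCm38, Tlr7 (ENSMUSG00000044583) lies on chromosome X at 167304929 to 167330558, Sdc3 (ENSMUSG00000025743) on chromosome 4 at 130792537 to 130826319 and Mpeg1 (ENSMUSG00000046805) on chromosome 19 at 12460779 to 12465283. Car2 (ENSMUSG00000027562) lies on chromosome 3 at 14886273 to 14900770, Asb2 (ENSMUSG00000021200) on chromosome 12 at 103321142 to 103356001 and Bcat1 (ENSMUSG00000030268) on chromosome 6 at 144993835 to 145076184. Tpst1 (ENSMUSG00000034118) lies on chromosome 5 at 130073326 to 130135729 and Gpsm1 (ENSMUSG00000026930) on chromosome 2 at 26315515 to 26348237. All are protein-coding, counts were summed per gene, and no pair of them lies on the same chromosome.

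Promoter windows from RefSeq (GRCm38.p6; 250 bases before to 50 after an annotated start) were matched by symbol for 6 of the 8 genes, with 12 windows among them. Tlr7 and Car2 were not matched. The windows were searched on both strands for letters based on sites that factors of the AP-1 and IRF families are known to bind. N stands for any base, so a match need not be a known site. The motifs were TGANTCA (AP-1), TGACGTCA (CRE), GAAANNGAA (IRF dimer core) and GGAANNGAA (ETS-IRF composite). The last pair differs only in its second letter, so a place on a strand can match at most 1 of them, and AP-1 and CRE read the same on both strands. A composite of AP-1 and IRF letters, the kind of element named above for BATF3, was not among the motifs searched. In 32841 windows of all genes, the share with at least 1 match was 7.81% for AP-1, 1.79% for CRE, 8.56% for the IRF core and 8.24% for the ETS-IRF motif. Among the 12 windows, 1 of Bcat1 held an AP-1 match, 1 of Asb2 and 1 of Gpsm1 held an IRF core match, and the other 9 held none of the 4. Shown first are the windows of Sdc3 (chr4:130792287-130792586, plus strand) and Mpeg1 (chr19:12460520-12460819, plus strand), the genes with the largest differences for which a window was matched. They differ in base composition, with 77.7% G or C for Sdc3 and 39% for Mpeg1, and neither holds any of the 4 motifs.
Sdc3: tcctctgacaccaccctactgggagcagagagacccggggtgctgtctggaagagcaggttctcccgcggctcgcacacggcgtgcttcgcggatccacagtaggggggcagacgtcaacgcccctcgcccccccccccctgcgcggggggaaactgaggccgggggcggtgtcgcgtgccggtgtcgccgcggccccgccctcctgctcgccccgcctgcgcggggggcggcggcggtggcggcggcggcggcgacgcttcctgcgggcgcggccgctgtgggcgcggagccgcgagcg
Mpeg1: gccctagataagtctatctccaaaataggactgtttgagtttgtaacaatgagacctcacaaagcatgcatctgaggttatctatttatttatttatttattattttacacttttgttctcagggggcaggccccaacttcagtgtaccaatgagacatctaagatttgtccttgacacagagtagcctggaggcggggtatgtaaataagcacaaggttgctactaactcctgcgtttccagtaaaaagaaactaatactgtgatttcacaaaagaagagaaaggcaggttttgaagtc

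The windows with a match are those of Asb2 (chr12:103355952-103356251, minus strand), Bcat1 (chr6:145076108-145076407, minus strand) and Gpsm1 (chr2:26315283-26315582, plus strand), each written 5′ to 3′ on the gene's strand with the match in capitals. In Asb2 the IRF core match is on the opposite strand and its first base is at -165 from the start site. In Bcat1 the AP-1 match has A at the N position and begins at -24, and in Gpsm1 the IRF core match begins at -201. A match is a run of letters and not a measured binding site.
Asb2: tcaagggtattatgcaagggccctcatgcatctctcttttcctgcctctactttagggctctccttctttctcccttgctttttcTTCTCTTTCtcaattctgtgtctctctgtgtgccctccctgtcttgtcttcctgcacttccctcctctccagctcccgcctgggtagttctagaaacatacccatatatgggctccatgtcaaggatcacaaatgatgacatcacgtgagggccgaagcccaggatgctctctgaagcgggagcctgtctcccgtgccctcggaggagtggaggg
Bcat1: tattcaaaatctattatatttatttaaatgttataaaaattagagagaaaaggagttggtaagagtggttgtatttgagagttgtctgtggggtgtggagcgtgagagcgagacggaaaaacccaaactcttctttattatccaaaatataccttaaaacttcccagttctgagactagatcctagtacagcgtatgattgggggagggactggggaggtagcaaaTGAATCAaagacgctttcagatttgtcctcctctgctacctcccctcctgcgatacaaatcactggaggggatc
Gpsm1: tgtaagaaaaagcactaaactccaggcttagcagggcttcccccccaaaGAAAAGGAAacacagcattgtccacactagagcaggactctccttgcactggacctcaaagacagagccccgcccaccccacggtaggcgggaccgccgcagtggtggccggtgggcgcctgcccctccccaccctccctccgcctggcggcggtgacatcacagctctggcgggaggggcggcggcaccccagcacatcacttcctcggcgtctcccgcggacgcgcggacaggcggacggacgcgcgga

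After stimulation, all 8 genes were still lower with Batf3, and all 8 passed the test. For each of them the 3 Batf3 stimulated libraries lay below the 3 control stimulated libraries. By edgeR's quasi-likelihood test 14.6% of the 15702 genes fell in the same comparison, and 14.8% rose. Over all tested genes, 19.9% had all Batf3 stimulated libraries below all control stimulated libraries. The same share in non-stimulated cells, whose libraries chose the genes, was 27.1%. The size of the fall was not shared. Tlr7, Sdc3 and Mpeg1 fell by log2 differences beyond -1, as 0.834% of tested genes did, while the other 5 fell by between 0.14 and 0.55 on the log2 scale. The median log2 difference of all tested genes was 0.00. All 8 genes passed the filter on low counts, Tlr7 without any Batf3 stimulated library above the filter's level of 0.7001 CPM.

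**Figure D1:**
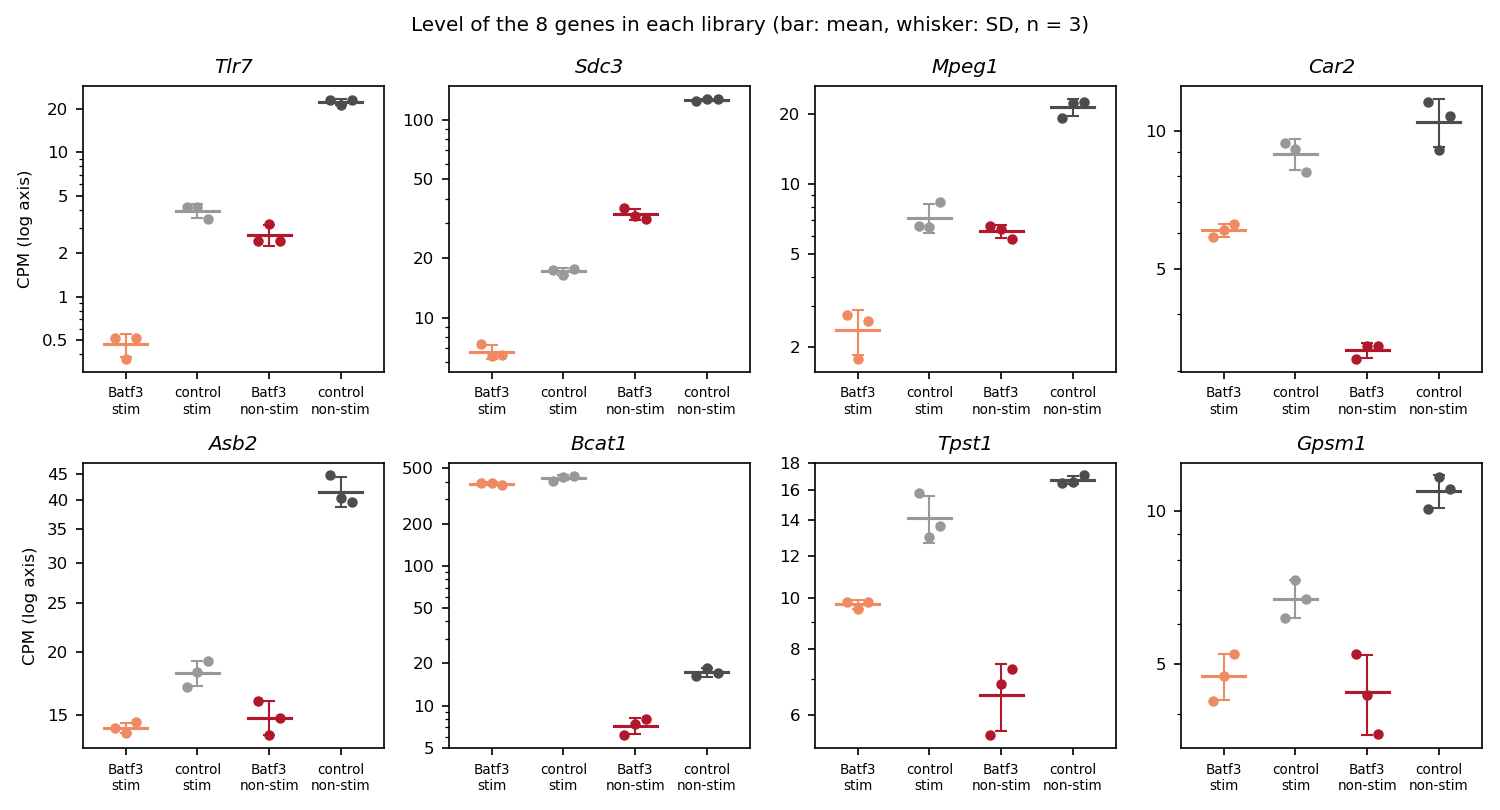
Level of each of the 8 genes in CPM on a log axis, with 1 point per library, a bar for the mean and a whisker for the SD (n = 3). In both cultures the Batf3 points lie below the control points in each panel. Bcat1 lies between 377 and 440.5 CPM in the stimulated libraries and between 6.12 and 18.5 CPM in the non-stimulated ones.

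Tlr7 had 0.521, 0.371 and 0.516 CPM in Batf3 stimulated libraries (7, 5 and 7 counts), against 4.19, 4.19 and 3.43 CPM in control stimulated libraries (55, 55 and 45 counts). The groups did not overlap, and the level with Batf3 was close to the 3-count floor. The log2 difference was -3.04 ± 0.36 (SE; adjusted p = 4.3e-14, edgeR quasi-likelihood with Benjamini-Hochberg adjustment), which is 8.25-fold lower. In non-stimulated cells Tlr7 had 2.42, 3.20 and 2.44 CPM with Batf3, against 22.8, 21.1 and 23.0 CPM with the control vector. That log2 difference, -3.05 ± 0.15, ranked first among called genes with at least 10 CPM in control non-stimulated cells and no overlap of libraries. The difference between cultures (stimulated minus non-stimulated) was 0.00 ± 0.39. The non-stimulated values that chose the 8 genes enter this difference, so for each of them it is a description and not a test. Stimulated cells had less Tlr7 than non-stimulated cells with either vector, by a log2 difference of -2.50 ± 0.36 with the Batf3 vector and of -2.50 ± 0.14 with the control vector.

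Tlr7 is also a gene of other blood cells, and in bulk RNA fewer cells of a type and less RNA per cell cannot be told apart. The 8 markers of plasmacytoid dendritic cells summed to between 7.07 and 9.05 CPM in Batf3 stimulated libraries and between 10.6 and 12.5 CPM in control stimulated libraries. In non-stimulated cells they summed to between 36.6 and 39.997 CPM with Batf3 and between 45.5 and 48.0 CPM with the control vector. Siglech, a defining marker of these cells, was at 0 in all 12 libraries, and most of the sum came from Lair1, Tcf4 and Pacsin1, which are not restricted to them. In stimulated cells 0 of the 6 tested markers rose and 1 fell, Tcf4 (-0.73 ± 0.15). In non-stimulated cells 0 rose and 2 fell, Ccdc162 and Pld4, which is also in the Toll-like receptor list. Of 11 B cell markers Ms4a1 was at 0 in every library. Nearly all of the B cell sum, 40.3 to 44.7 CPM against 51.5 to 55.5 CPM in stimulated cells and 393 to 412 CPM against 360.3 to 374 CPM in non-stimulated cells (Batf3 against control), came from Ighm. The 12 macrophage and monocyte markers summed to more with Batf3 in both cultures (17.7 to 19.9 CPM against 11.6 to 13.9 CPM stimulated, 14.3 to 15.3 CPM against 8.62 to 10.6 CPM non-stimulated), with Lyz2, C1qb and C1qc at 0 throughout. The 9 markers of conventional dendritic cells likewise summed to more with Batf3 (64.1 to 68.0 CPM against 37.5 to 43.9 CPM stimulated, 37.4 to 39.8 CPM against 31.0 to 32.1 CPM non-stimulated). Only 5 of these 9 were tested, of which 3 rose and 1 fell in stimulated cells and 2 rose and 0 fell in non-stimulated cells. Their median log2 difference was 0.69 in stimulated and -0.02 in non-stimulated cells. The part of these markers in the Tlr7 result was not tested.

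Among 28 tested genes of the endosomal Toll-like receptor pathway, 7 rose and 7 fell in stimulated cells, and 3 rose and 8 fell in non-stimulated cells, where 16.3% of all tested genes rose and 23.0% fell. The median log2 difference of the list was 0.01 in stimulated and -0.05 in non-stimulated cells, against 0.00 and -0.02 for all tested genes. In stimulated cells 3 genes of the list fell with library sizes alone, and 4 without control stimulated replicate 3. The number that rose in non-stimulated cells was 8 with library sizes alone, and 5 without Batf3 stimulated replicate 1 or 2 or any 1 of the control stimulated libraries. Unc93b1, which carries the endosomal receptors out of the endoplasmic reticulum, fell in both cultures. It averaged 4.91 ± 0.655 CPM with Batf3 and 6.83 ± 0.172 CPM with the control vector in stimulated cells (log2 difference -0.47 ± 0.14), and 40.7 ± 2.23 CPM and 64.9 ± 2.43 CPM with Batf3 and control vector in non-stimulated cells (-0.67 ± 0.06). The transcription factors downstream of the receptors fell as well, Irf5 by 0.68 and 0.89 and Irf7 by 0.78 and 0.60 on the log2 scale in stimulated and non-stimulated cells. Irf7 is also induced by type I interferon. Myd88, the adaptor that TLR7 signals through, stood at 35.0 ± 3.61 CPM with Batf3 and 33.4 ± 1.23 CPM with the control vector in stimulated cells and did not pass the test in either culture. It did pass in non-stimulated cells without control non-stimulated replicate 2 (-0.14) and without Batf3 stimulated replicate 3 (-0.11).

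The other endosomal Toll-like receptors of the list were scarce. Tlr8 had 0 summed counts in both stimulated groups, 1 in Batf3 non-stimulated and 2 in control non-stimulated libraries, and Tlr9 had 2, 1, 13 and 4 summed counts in Batf3 stimulated, control stimulated, Batf3 non-stimulated and control non-stimulated libraries, too few to test. Tlr3, which senses double-stranded RNA, went the other way from Tlr7, with 1.06 ± 0.115 CPM with Batf3 and 0.432 ± 0.0882 CPM with the control vector in stimulated cells (1.28 ± 0.46), and 1.73 ± 0.528 CPM and 0.818 ± 0.307 CPM with Batf3 and control vector in non-stimulated cells (1.07 ± 0.34). Tlr3 passed the filter on low counts only through the Batf3 libraries, which favours a rise, so its calls are no support. They were lost with DESeq2. By edgeR the call in stimulated cells was lost without Batf3 replicate 2 (adjusted p = 0.0682), control replicate 1 (0.0718) or control replicate 3 (0.0734), and in non-stimulated cells without Batf3 replicate 3 (0.0915) or control replicate 2 (0.0762).

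Sdc3 had 7.37, 6.38 and 6.49 CPM in Batf3 stimulated libraries, against 17.5, 16.4 and 17.6 CPM in control stimulated libraries. The vectors did not overlap. Sdc3 fell by 1.35 ± 0.11 on the log2 scale (adjusted p = 5.77e-18 by edgeR), to 39.3% of the control level. In non-stimulated cells it had 35.8, 32.7 and 31.5 CPM with Batf3, against 125, 127 and 127 CPM with the control vector, a log2 difference of -1.92 ± 0.06. The difference between cultures was 0.57 ± 0.12, given as a description for the same reason. Stimulated cells had far less Sdc3 than non-stimulated cells, by -2.30 ± 0.10 with the Batf3 vector and -2.88 ± 0.07 with the control vector.

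Of 24 tested genes for syndecans, glypicans and heparan sulfate synthesis, 5 rose and 4 fell in stimulated cells, and 4 rose and 5 fell in non-stimulated cells, with medians of 0.06 and 0.00. The number that rose in stimulated cells was 3 without Batf3 stimulated replicate 3 and 3 with DESeq2. Sdc1, the syndecan of plasma cells and epithelia, fell in stimulated cells to 3.61 ± 0.245 CPM with Batf3, against 6.02 ± 0.135 CPM with the control vector (-0.74 ± 0.18). Its non-stimulated level was 0.362 ± 0.0969 CPM with Batf3 and 0.531 ± 0.176 CPM with the control vector and did not pass the test. Sdc4 averaged 7.02 ± 0.406 CPM with Batf3 and 5.10 ± 0.427 CPM with the control vector in stimulated cells (0.46 ± 0.16). That call was lost without Batf3 stimulated replicate 2 or 3 or control stimulated replicate 1 or 3 (highest adjusted p = 0.0888 by edgeR). Sdc2 had 3 summed counts in Batf3 non-stimulated libraries and 0 in each of the other groups. Xylt1, a xylosyltransferase that begins the heparan sulfate chain, rose in both cultures by 1.31 ± 0.15 (stimulated) and 1.03 ± 0.14 (non-stimulated). Xylt2, which encodes another such enzyme, was not called in either culture (-0.18 ± 0.12 stimulated, -0.20 ± 0.08 non-stimulated). With the control vector Xylt2 averaged 10.5 CPM and Xylt1 3.91 CPM in stimulated cells, and 23.5 and 4.78 CPM in non-stimulated cells. Sulf2, an endosulfatase that trims heparan sulfate, fell in stimulated cells to 6.00 ± 0.0487 CPM with Batf3, against 11.5 ± 0.835 CPM with the control vector (-0.93 ± 0.14). Gpc1, a glypican, fell in non-stimulated cells by 0.88 ± 0.07 and rose by 0.24 ± 0.08 in stimulated cells, the second call being lost with DESeq2 (adjusted p = 0.0666) and without Batf3 stimulated replicate 3 (adjusted p = 0.0503 by edgeR).

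Mpeg1 had 2.75, 1.78 and 2.58 CPM in Batf3 stimulated libraries, against 6.62, 6.55 and 8.38 CPM in control stimulated libraries. No library of one group reached the other. The log2 difference was -1.60 ± 0.18 (adjusted p = 1.88e-11 by edgeR), or 3.02-fold lower. The non-stimulated values were 6.63, 6.41 and 5.83 CPM with Batf3, against 19.3, 22.3 and 22.6 CPM with the control vector, a log2 difference of -1.76 ± 0.11. Between cultures the difference was 0.17 ± 0.22 on the same footing. Mpeg1 is a known gene of macrophages, whose summed markers, given beside Tlr7, were higher with Batf3 in both cultures. Of these 12 markers only 4 were tested, of which 1 rose in stimulated and 2 in non-stimulated cells, and 0 fell. The part of these markers in the Mpeg1 result was not tested. Perforin itself, the pore-forming protein of cytotoxic granules encoded by Prf1, moved in the opposite direction. Prf1 had 162, 159 and 159 CPM in Batf3 stimulated libraries, against 90.6, 94.1 and 96.0 CPM in control stimulated libraries, and rose by 0.78 ± 0.05 in stimulated and 0.52 ± 0.09 in non-stimulated cells. Of 10 tested genes of pore-forming proteins and granule release, 5 rose and 2 fell in stimulated cells and 3 rose and 3 fell in non-stimulated cells, with medians of 0.11 and -0.01. Both gasdermin genes tested, Gsdmd and Gsdme, which also encode pore-forming proteins, were called lower in both cultures, with log2 differences of -0.24 ± 0.09 and -0.43 ± 0.13 in stimulated cells and -0.38 ± 0.05 and -0.46 ± 0.18 in non-stimulated cells. The non-stimulated call of Gsdme was lost in 8 of 18 alternatives, among them DESeq2 and, by edgeR, leaving out Batf3 non-stimulated replicate 1 or 2 or control non-stimulated replicate 2 or 3 (highest adjusted p = 0.0873). Of these 2 calls in stimulated cells, 1 was left without Batf3 replicate 2, control replicate 1 or control replicate 2.

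Car2 encodes a cytosolic carbonic anhydrase, which interconverts CO2 and bicarbonate. It had 5.88, 6.08 and 6.27 CPM in Batf3 stimulated libraries, against 9.44, 9.15 and 8.15 CPM in control stimulated libraries. The groups did not overlap, and Car2 fell by 0.55 ± 0.14 on the log2 scale (adjusted p = 0.000807 by edgeR). In non-stimulated cells it had 3.19, 3.40 and 3.40 CPM with Batf3, against 11.6, 9.08 and 10.8 CPM with the control vector (-1.65 ± 0.15). The difference between cultures was 1.10 ± 0.20. With the Batf3 vector the stimulated libraries lay above the non-stimulated ones (0.87 ± 0.16), while with the control vector the 2 cultures overlapped (-0.23 ± 0.12). Of 12 other tested carbonic anhydrases and bicarbonate transporters, 5 rose and 2 fell in stimulated cells and 4 rose and 2 fell in non-stimulated cells, with medians of 0.30 and 0.20. Car12, a carbonic anhydrase of the cell surface, fell in both cultures by 0.33 ± 0.05 and 0.79 ± 0.10. Slc4a4, a sodium bicarbonate cotransporter, had 27.0, 25.6 and 26.8 CPM in Batf3 stimulated libraries, against 8.30, 8.23 and 9.37 CPM in control stimulated libraries. It rose by 1.62 ± 0.10 there and by 1.09 ± 0.12 in non-stimulated cells. In non-stimulated cells the number of the list that fell was 1 without Batf3 replicate 1, Batf3 replicate 2 or control replicate 1, and the number that rose was 2 with DESeq2.

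Asb2 encodes the subunit by which a cullin-5 ubiquitin ligase recognises its targets, among them filamin A. It had 14.1, 13.9 and 14.5 CPM in Batf3 stimulated libraries, against 17.1, 18.3 and 19.2 CPM in control stimulated libraries. Here too the vectors did not overlap, and Asb2 fell by 0.36 ± 0.09 on the log2 scale (adjusted p = 0.00122 by edgeR). The non-stimulated values were 16.0, 13.7 and 14.8 CPM with Batf3, against 44.7, 40.4 and 39.6 CPM with the control vector (-1.48 ± 0.08). Stimulated minus non-stimulated, the difference was 1.13 ± 0.12. With the Batf3 vector the 2 cultures overlapped (-0.07 ± 0.09), and with the control vector stimulated cells had less Asb2 (-1.19 ± 0.08). Flna, which encodes that crosslinker of actin, averaged 256 ± 11.3 CPM with Batf3 and 232 ± 5.13 CPM with the control vector in stimulated cells. Flna rose by 0.14 ± 0.04 in stimulated and 0.32 ± 0.03 in non-stimulated cells. This is the transcript, while ASB2 acts on the protein, which was not measured. In the list of ASB proteins, cullin-5 partners and filamins, 2 of 13 tested genes rose in each culture, while 1 (Cul5) fell in stimulated and 2 (Cul5 and Asb13) in non-stimulated cells. With library sizes alone 5 genes of the list rose in non-stimulated cells and 0 fell in stimulated cells. The number that fell in stimulated cells was 2 without Batf3 stimulated replicate 2 and 0 without Batf3 stimulated replicate 3, and in non-stimulated cells it was 1 without Batf3 non-stimulated replicate 1.

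Bcat1 encodes the cytosolic transaminase of branched-chain amino acids. It had 395, 390.2 and 377 CPM in Batf3 stimulated libraries, against 407, 432 and 440.5 CPM in control stimulated libraries. The 2 groups were apart, but the fall was small, 0.14 ± 0.04 on the log2 scale (adjusted p = 0.000505 by edgeR), or 90.8% of the control level. With library sizes alone it was 0.09 on the log2 scale (adjusted p = 0.0237). In non-stimulated cells Bcat1 had 6.12, 7.37 and 8.01 CPM with Batf3, against 16.1, 18.5 and 17.1 CPM with the control vector (-1.27 ± 0.10). Between cultures the difference was 1.13 ± 0.11. Of the 8, Bcat1 differed most between stimulated and non-stimulated cells. It was 54.0-fold higher in stimulated cells with the Batf3 vector and 24.7-fold higher with the control vector. Of 22 other tested genes of branched-chain amino acid uptake and breakdown, 0 rose and 6 fell in stimulated cells, and 1 rose and 9 fell in non-stimulated cells, with medians of -0.15 and -0.11 against 0.00 and -0.02 for all tested genes. With library sizes alone 1 gene of the list rose in stimulated cells. Slc7a5 and Slc3a2, the chains of the transporter that brings large neutral amino acids into activated T cells, fell in both cultures and were picked out after their values were seen. Slc7a5 averaged 814 ± 26.0 CPM with Batf3 and 1043 ± 18.05 CPM with the control vector in stimulated cells (-0.36 ± 0.03), and fell by 0.42 ± 0.04 in non-stimulated cells. Slc3a2 fell by 0.22 ± 0.03 and 0.23 ± 0.04 in stimulated and non-stimulated cells. Mmut, the 1 gene that rose in non-stimulated cells, did not pass without Batf3 non-stimulated replicate 3 or control non-stimulated replicate 1 or 2. Bcat2, the mitochondrial transaminase, averaged 12.6 ± 0.503 CPM with Batf3 and 15.8 ± 1.12 CPM with the control vector in stimulated cells and fell by 0.33 ± 0.10. In non-stimulated cells it stood at 18.9 ± 0.773 CPM with Batf3 and 19.3 ± 0.741 CPM with the control vector and did not pass the test. Pcca, a subunit of propionyl-CoA carboxylase at the end of the pathway, fell by 0.68 ± 0.12 in non-stimulated cells. Its fall of 0.69 ± 0.19 in stimulated cells was not called without control stimulated replicate 1 (adjusted p = 0.0646 by edgeR).

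Tpst1 encodes a Golgi enzyme that adds sulfate to tyrosines of secreted and surface proteins. It had 9.82, 9.50 and 9.81 CPM in Batf3 stimulated libraries, against 15.8, 13.0 and 13.6 CPM in control stimulated libraries. The vectors did not overlap, and Tpst1 fell by 0.54 ± 0.11 on the log2 scale (adjusted p = 4.97e-05 by edgeR). In non-stimulated cells it had 5.48, 6.86 and 7.31 CPM with Batf3, against 16.5, 16.6 and 17.03 CPM with the control vector (-1.35 ± 0.11). The difference between cultures was 0.81 ± 0.16. Stimulated cells had more Tpst1 than non-stimulated cells with the Batf3 vector (0.57 ± 0.12) and less with the control vector (-0.24 ± 0.10). Tpst2, which encodes the other enzyme of this kind, averaged 43.0 ± 1.60 CPM with Batf3 and 38.5 ± 1.47 CPM with the control vector in stimulated cells, and 140 ± 7.13 CPM and 123 ± 7.15 CPM with Batf3 and control vector in non-stimulated cells. It rose by 0.18 ± 0.04 in non-stimulated cells. Its difference in stimulated cells (0.16 ± 0.06) was not called without Batf3 replicate 1 or 3 or control replicate 2 or 3 (highest adjusted p = 0.194 by edgeR).

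In the list of Tpst2 and genes for the supply of the sulfate donor, 2 of 10 tested genes rose and 0 fell in stimulated cells, Tpst2 and Slc26a11, and the same 2 rose and 1 fell (Slc35b2) in non-stimulated cells. The 2 calls in stimulated cells came to 0 without Batf3 replicate 1 or 3 or control replicate 2 or 3, and to 1 without Batf3 replicate 2 or control replicate 1. With DESeq2 the number was also 0. The list had 1 gene that fell in stimulated cells without Batf3 stimulated replicate 1 or 2, control stimulated replicate 1 or Batf3 non-stimulated replicate 3, and 2 fell in non-stimulated cells without control non-stimulated replicate 3 or Batf3 stimulated replicate 3.

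Leukocyte surface proteins that carry sulfated tyrosines formed a separate list of 10 genes. Of its 9 tested genes, 8 rose and 0 fell in stimulated cells, and 7 rose and 2 fell in non-stimulated cells, with median log2 differences of 0.50 and 0.37 against 0.00 and -0.02 for all tested genes. Over all tested genes 14.8% rose and 14.6% fell in stimulated cells, and 16.3% rose and 23.0% fell in non-stimulated cells. In stimulated cells the call of S1pr1 held in 15 of 18 alternatives and that of Cx3cr1 in 17. The chemokine receptor gene Ccr2 fell in non-stimulated cells (-0.31 ± 0.04) and rose in stimulated cells (0.65 ± 0.10). Both calls of Ccr2 held without any 1 library. Cxcr4, another chemokine receptor, rose in both cultures, by 1.25 ± 0.09 in stimulated and 0.50 ± 0.05 in non-stimulated cells.

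Gpsm1 encodes a protein that binds inactive G protein alpha-i subunits. It had 4.24, 4.75 and 5.24 CPM in Batf3 stimulated libraries, against 6.17, 7.32 and 6.70 CPM in control stimulated libraries. The groups did not overlap, and Gpsm1 fell by 0.50 ± 0.15 on the log2 scale (adjusted p = 0.00788 by edgeR), the weakest of the 8 by its p. Leaving out control stimulated replicate 2 gave a fall of 0.45 with an adjusted p of 0.0476 by edgeR. The non-stimulated values were 5.23, 4.36 and 3.65 CPM with Batf3, against 10.1, 11.7 and 11.1 CPM with the control vector (-1.31 ± 0.14). Between cultures the difference was 0.80 ± 0.21. With the Batf3 vector the 2 cultures overlapped (0.10 ± 0.16), and with the control vector stimulated cells had less Gpsm1 (-0.70 ± 0.13).

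Its paralog Gpsm2, which links alpha-i subunits to the mitotic spindle, had 5.13, 5.56 and 4.94 CPM in Batf3 stimulated libraries, against 2.06, 2.29 and 1.90 CPM in control stimulated libraries, and rose by 1.32 ± 0.19. In non-stimulated cells Gpsm2 averaged 41.9 ± 2.27 CPM with Batf3 and 38.8 ± 1.51 CPM with the control vector and was not called. It was called with library sizes alone (0.19) and when only the non-stimulated groups were fitted (0.14). The test of the difference between cultures was passed (1.21 ± 0.20, adjusted p = 5.86e-07 by edgeR). Gpsm3 was not called in either culture, at 0.20 ± 0.17 in stimulated and 0.13 ± 0.06 in non-stimulated cells. The non-stimulated value was called with library sizes alone (0.21), without Batf3 non-stimulated replicate 1 (0.17), and without Batf3 stimulated replicate 1 or 2 or any 1 of the control stimulated libraries (0.16 each). In the list of alpha-i subunits and their regulators, 6 of 21 tested genes rose and 2 (Gnas and Gng5) fell in stimulated cells, and 4 rose and 2 (Rgs3 and Rgs16) fell in non-stimulated cells, with medians of 0.10 and 0.05. The number that rose in non-stimulated cells was 11 with library sizes alone and 7 or 8 without Batf3 stimulated replicate 1 or 2 or any 1 of the control stimulated libraries. The number that fell was 1 in stimulated cells without Batf3 stimulated replicate 2 or 3 or control stimulated replicate 1, and 1 in non-stimulated cells without control non-stimulated replicate 3.

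**Figure D2:**
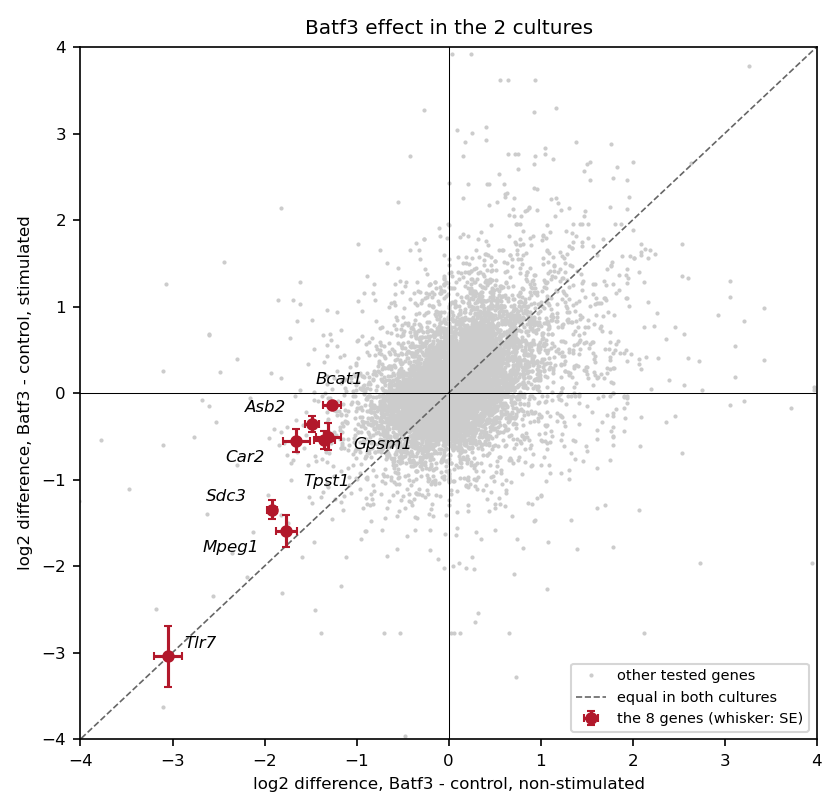
Log2 difference between Batf3 and control cells in stimulated (vertical axis) against non-stimulated cultures (horizontal axis), for the 8 genes (red, whiskers SE) and other tested genes (grey; 16 of 15702 lie outside the axes). Tlr7 and Mpeg1 lie on or near the dashed line of equal differences, and Sdc3 and the other 5 lie above it, nearer to 0 on the vertical axis.

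Set side by side, the difference between cultures ran from 0.00 for Tlr7 through 0.17 for Mpeg1 and 0.57 for Sdc3 to between 0.80 and 1.13 for Car2, Asb2, Bcat1, Tpst1 and Gpsm1. Choosing genes for a large fall in the non-stimulated libraries by itself moves this difference above 0, and how far was not tested. All 3 genes that were lowered most in stimulated cells were also lower in stimulated than in non-stimulated cells with either vector. Bcat1 was far higher after stimulation with both. Car2 and Tpst1 in stimulated cells stood at 183% and 148% of their non-stimulated level with the Batf3 vector, against 85.0% and 84.7% with the control vector.

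**Figure D3:**
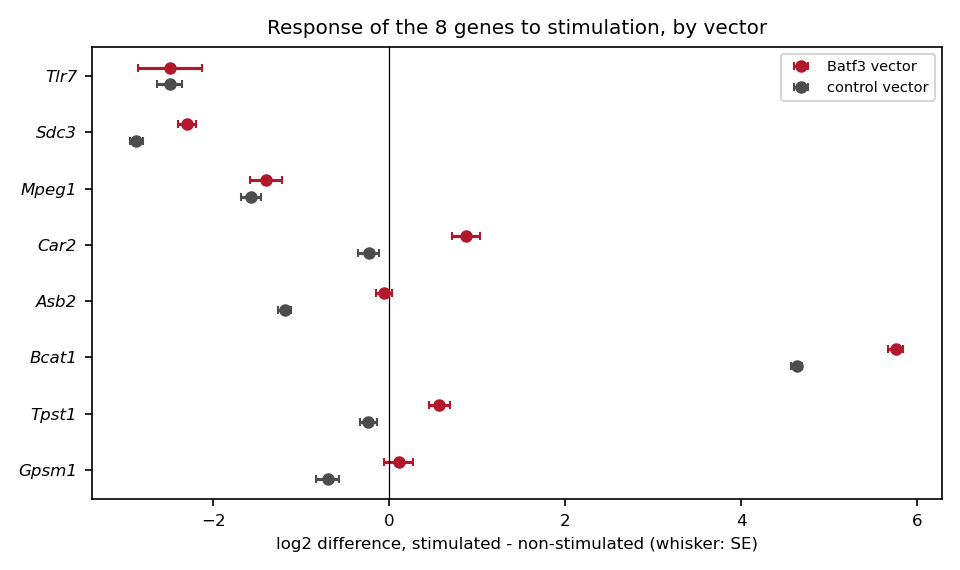
Log2 difference between stimulated and non-stimulated cells for each of the 8 genes, with the Batf3 vector (red, upper) and the control vector (grey, lower), whiskers SE. Tlr7, Sdc3 and Mpeg1 lie left of 0 with both vectors, Bcat1 lies at 5.75 and 4.63, and for each gene but Tlr7, whose points coincide at -2.50, the Batf3 point lies to the right of the control point.

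Per kilobase of exon, the levels in control stimulated cells ran from 45.7 ± 1.84 CPM per kb for Bcat1 through 5.13 ± 0.303 for Asb2, 5.07 ± 0.514 for Tpst1, 3.68 ± 0.280 for Car2, 2.87 ± 0.113 for Sdc3, 1.66 ± 0.238 for Mpeg1 and 1.25 ± 0.107 for Gpsm1 to 0.964 ± 0.108 CPM per kb for Tlr7. In this order Asb2 and Tpst1 did not differ beyond their SDs. In control non-stimulated cells the order began with Sdc3 at 21.04 ± 0.202 CPM per kb and Asb2 at 11.7 ± 0.781 CPM per kb. It went on with Tpst1 (5.99 ± 0.106), Tlr7 (5.46 ± 0.256), Mpeg1 (4.93 ± 0.424) and Car2 (4.33 ± 0.524) and ended with Gpsm1 (2.03 ± 0.147) and Bcat1 (1.85 ± 0.127). The SD ranges of Tlr7 and Mpeg1, of Mpeg1 and Car2, and of Gpsm1 and Bcat1 overlapped there.

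**Figure D4:**
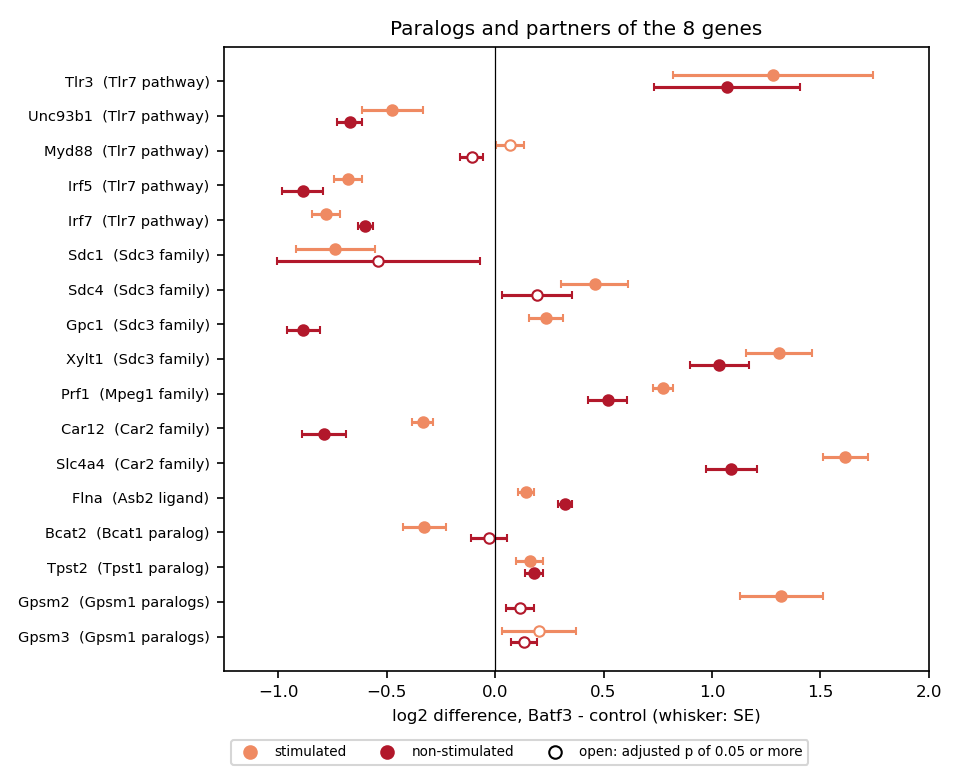
Log2 difference between Batf3 and control cells for paralogs and partners of the 8 genes in stimulated (orange, upper) and non-stimulated cells (red, lower), whiskers SE, with open points where the adjusted p was 0.05 or more. Unc93b1, Irf5, Irf7 and Car12 lie left of 0 in both cultures, and Tlr3, Xylt1, Prf1, Slc4a4, Flna and Tpst2 lie right of 0 in both, the calls of Tlr3 and, in stimulated cells, of Tpst2 being lost without single libraries.

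The 9 pathway lists together held 149 tested genes besides the 8. Across them 40 rose and 24 fell in stimulated cells (26.8 and 16.1%) and 30 rose and 34 fell in non-stimulated cells (20.1 and 22.8%). The shares over all tested genes were 14.8 and 14.6% in stimulated and 16.3 and 23.0% in non-stimulated cells. The median log2 difference of the 149 genes was 0.03 and 0.00. With library sizes alone the number that rose in non-stimulated cells was 52. Of all called genes, 49.7% fell in stimulated and 58.5% in non-stimulated cells, and these shares were 34.4 and 39.9% with library sizes alone, which shifted the median of all tested genes by 0.05 and 0.07 on the log2 scale.

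Genes next to the 8 were examined for differences of the same kind. Of the 16 nearest tested protein-coding neighbours, 3 rose and 7 fell in stimulated cells and 2 rose and 6 fell in non-stimulated cells. Over all tested genes 14.8% rose and 14.6% fell in stimulated cells, and 16.3% rose and 23.0% fell in non-stimulated cells, and with 16 genes no more is read from these counts. Beside Tlr7, Tmsb4x, which encodes the actin-binding thymosin beta-4, rose in both cultures by 0.57 ± 0.04 and 0.20 ± 0.03. Prps2, an enzyme of nucleotide synthesis whose gene begins 15.8 kb from Tlr7, fell in non-stimulated cells by 0.42 ± 0.06 and stood at 28.0 ± 1.87 CPM with Batf3 and 27.3 ± 0.384 CPM with the control vector in stimulated cells. Both neighbours of Bcat1 fell in both cultures, Etnk1, an ethanolamine kinase, by 0.24 ± 0.05 and 0.25 ± 0.04 and Lrmp by 0.48 ± 0.04 and 0.29 ± 0.05. Etnk1 lies 1762 kb away and Lrmp 39.5 kb. Dnlz overlaps the end of Gpsm1 by 0.116 kb, and since the strand setting of the counting was not given, reads there may be shared.

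The neighbours of Mpeg1 on chromosome 19 are Pfpl and Dtx4. Pfpl, a gene named for its likeness to pore-forming proteins at 12427905 to 12432110, had 0.670, 0.297 and 0.221 CPM in Batf3 stimulated libraries (9, 4 and 3 counts), against 5.63, 3.66 and 5.64 CPM in control stimulated libraries (74, 48 and 74 counts). No values of the groups overlapped, and the log2 difference was -3.63 ± 0.45. Pfpl passed the filter on low counts only through the control stimulated libraries, so it had to differ, and its call, counted among the 7 above, is no support. In non-stimulated cells Pfpl had no counts with Batf3 and 3 counts with the control vector. Dtx4, which encodes a ubiquitin ligase of the deltex family and lies 1.055 kb beyond Mpeg1 at 12466338 to 12501454, had 7.96, 7.12 and 7.01 CPM in Batf3 stimulated libraries, against 16.98, 15.7 and 17.5 CPM in control stimulated libraries. It fell by 1.18 ± 0.11 (adjusted p = 2.94e-14 by edgeR). In non-stimulated cells it stood at 11.2 ± 0.621 CPM with Batf3 and 12.3 ± 0.508 CPM with the control vector (-0.13 ± 0.10) and was not called. Pfpl and Mpeg1 are related genes, and how the counting treated reads that align to both was not given, so the split between them is uncertain.

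**Figure D5:**
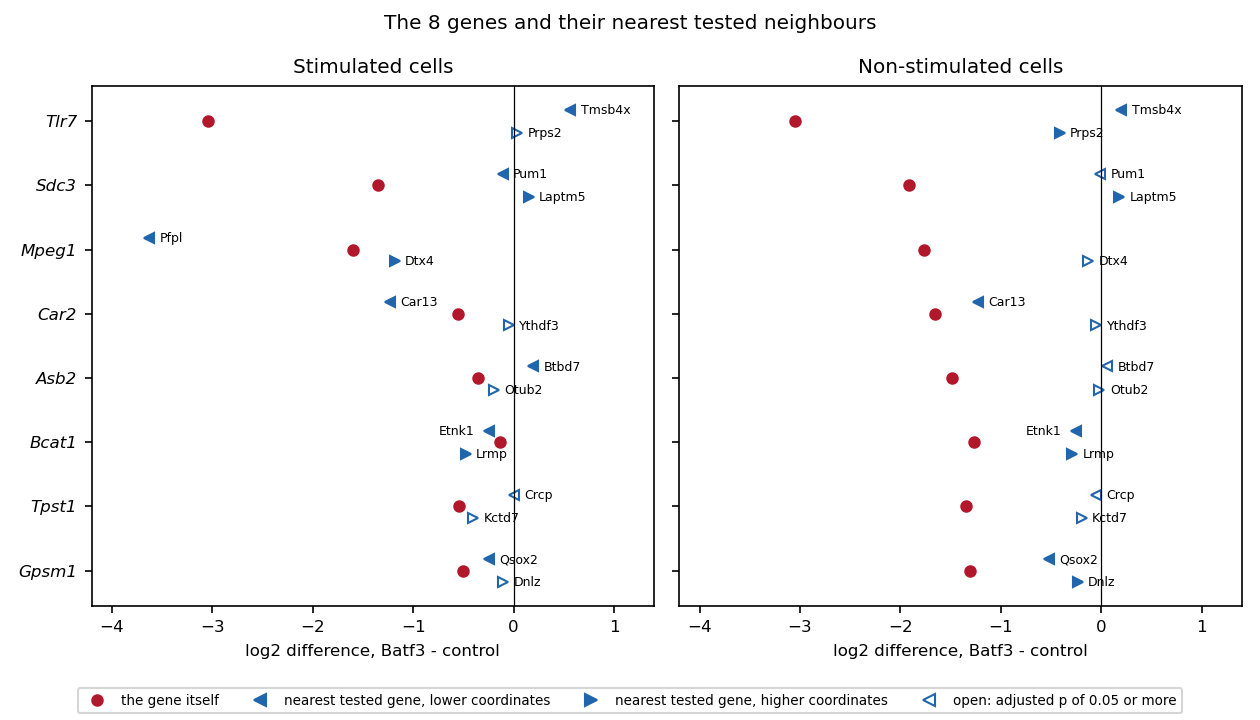
Log2 difference between Batf3 and control cells for the 8 genes (red circles) and their nearest tested neighbours (blue triangles, pointing left for the lower and right for the higher coordinate; open where the adjusted p was 0.05 or more), in stimulated (left panel) and non-stimulated cells (right panel). In stimulated cells Pfpl and Dtx4 lie at -3.63 and -1.18 beside Mpeg1, while Pfpl is not drawn for non-stimulated cells, where it had 3 counts in all.

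Car13, the tested neighbour of Car2 on its lower side and itself a carbonic anhydrase, was scarce, with 27 and 62 summed counts in stimulated and 17 and 39 in non-stimulated cells (Batf3 first in each pair). Its log2 difference was -1.23 ± 0.39 in stimulated and -1.23 ± 0.48 in non-stimulated cells. Car13 passed the filter on low counts only through the control libraries, which favours a fall. Its calls, counted among the neighbours and in the carbonic anhydrase list above, are no support. The stimulated call was lost with DESeq2 (adjusted p = 0.0547), and the non-stimulated one with DESeq2 (0.0801) and, by edgeR, without Batf3 replicate 1 (0.108) or 2 (0.18) or control replicate 1 (0.0871).

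The threshold of the choice can be placed in the ranking of genes by their log2 difference in non-stimulated cells, among called genes with at least 10 CPM in control cells and no overlap of libraries. Tlr7, Sdc3, Mpeg1, Car2, Asb2 and Tpst1 held ranks 1 to 6, and Gpsm1 and Bcat1 ranks 9 and 10. BC035044 (-1.32) and Ccn3 (-1.31) at ranks 7 and 8 were not chosen. Just below Bcat1 (-1.27) came Lrrc32 (-1.255) and Pak6 (-1.24). The ranking held 33 genes at least 2-fold lower, and of these 25 fell and 0 rose in stimulated cells. Among the 25 that were not chosen, 17 fell and 0 rose in stimulated cells, with a median log2 difference of -0.53. Without the cuts on call, level and overlap, the 8 ranked lower among the 15702 tested genes. Tlr7 was then at rank 11, Sdc3 at 32, Mpeg1 at 42 and Car2 at 53. Asb2 was at 67, Tpst1 at 86, Gpsm1 at 103 and Bcat1 at 111. Of all tested genes, 136 were called at least 2-fold lower in non-stimulated cells.

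The 8 genes did not share 1 profile over the 12 libraries. On the scale log2(CPM + 0.5), Pearson's r was 0.99 between Tlr7 and Mpeg1, 0.97 between Car2 and Tpst1 and 0.94 between Tlr7 and Sdc3, but 0.30 between Sdc3 and Car2 and -0.75 between Sdc3 and Bcat1. These are descriptions over 4 groups of 3 libraries that share their depth and treatment. Among 11665 genes, the profile most like that of Tlr7 was that of Lrrc32, whose product GARP binds latent TGF-beta (r = 0.99), with Mpeg1 next. Tlr7 and Lrrc32 were most like Mpeg1. Sdc3 was most like Bst2 and Ifi27l2a, which type I interferon induces (r = 0.99 each). Car2 was most like Serpina3f and Tpst1, Tpst1 like Car2 and Serpina3f, and Gpsm1 like Ascc3 and Serpina3g (r between 0.97 and 0.99). Asb2 was most like the metabolic enzyme genes Pgd and Gapdh (r = 0.99 each), and Bcat1 like Amd1, an enzyme of polyamine synthesis, and Ncl, which encodes nucleolin (0.999 each). By Spearman's rho another gene came first for each of the 8 except Gpsm1.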

How the data were processed

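RNA-seq was analysed in 12 libraries of polyadenylated RNA. Whole-number read counts per gene, deposited by the authors, came from STAR 2.7 alignments (GRCm38) counted by featureCounts, per the submitters' processing notes. No source used here gives the annotation release, strand setting or treatment of multiply aligned reads. Coordinates and exon lengths came from GENCODE M21, which held 55154 of the gene identifiers (181 did not match).

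The analysis used edgeR 4.0.16 (R 4.3.3): filterByExpr, TMM factors, 4 group means over all 12 libraries (8 residual degrees of freedom), robust quasi-likelihood tests, two-sided, Benjamini-Hochberg adjustment over 15702 genes, called at an adjusted p under 0.05. The fit was tested on simulated data. Library totals varied little, so low counts limit precision gene by gene. Alternatives were other scalings, no filter, DESeq2 1.42.0, other sample sets, a replicate block and leaving out each library.

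The genes and pathway lists were chosen with earlier results of these data known. Other named genes are the largest called changes of a list, fixed paralogs and partners, nearest neighbours, most similar profiles and genes at the edge of the ranking; only some are described, and a few are not reported here.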

Additional observations from a re-analysis of the deposited data

Results flagged for a closer look

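Of the 45 pathway, partner and neighbour genes described, 23 passed the test of the difference between cultures (the Batf3 effect in stimulated minus that in non-stimulated cells, log2 ± SE, adjusted p under 0.05 by edgeR), which 20.7% of all 15702 tested genes passed. The 45 were picked partly for large Batf3 effects. The 8 genes themselves are left out, since their choice used the non-stimulated libraries.

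Among genes of the Tlr7 and Sdc3 pathways the difference was 0.68 ± 0.22 for Slc15a3, a transporter of lysosomes, -0.18 ± 0.07 for Irf7, 1.12 ± 0.11 for Gpc1 and -1.73 ± 0.42 for Sulf2. Sulf2 was scarce in non-stimulated cells, with 40 summed counts with Batf3 and 22 with the control vector. Gpc1 fell in non-stimulated cells and rose in stimulated cells. For the granule genes it was 0.26 ± 0.10 for Prf1, 0.32 ± 0.09 for Stx11 and -0.71 ± 0.08 for Lyst. For carbonic anhydrases and bicarbonate transport it was 2.43 ± 0.54 for Car5b, 0.45 ± 0.11 for Car12 and 0.53 ± 0.16 for Slc4a4. Car5b had only 6, 2 and 2 counts in the control stimulated libraries, near the 3-count floor.

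Flna differed by -0.18 ± 0.05. Mmut, the mitochondrial methylmalonyl-CoA mutase, differed by -0.83 ± 0.19, and Slc26a11, an anion transporter, by -1.002 ± 0.23. The chemokine receptors differed by 0.96 ± 0.11 (Ccr2) and 0.75 ± 0.10 (Cxcr4). Among G protein genes the difference was 1.21 ± 0.20 for Gpsm2, 0.82 ± 0.12 for Rgs2 and 0.31 ± 0.05 for Gna13.

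Of the neighbours, Prps2 and Tmsb4x beside Tlr7 differed by 0.45 ± 0.09 and 0.37 ± 0.05, Dtx4 beside Mpeg1 by -1.05 ± 0.15, Lrmp beside Bcat1 by -0.19 ± 0.06 and Qsox2 beside Gpsm1 by 0.27 ± 0.11.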

How the results depend on the processing

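All 8 genes fell in stimulated cells under each of the 18 alternatives (other scalings, no filter, DESeq2, only the 2 groups of the contrast, the replicate block and 12 fits that each left out 1 library), and their log2 differences kept their direction. The ranges were -3.14 to -2.91 for Tlr7, -1.42 to -1.30 for Sdc3, -1.72 to -1.44 for Mpeg1, -0.62 to -0.51 for Car2, -0.41 to -0.31 for Asb2, -0.18 to -0.09 for Bcat1, -0.61 to -0.46 for Tpst1 and -0.59 to -0.44 for Gpsm1. The difference between cultures of Tlr7 lay between -0.12 and 0.15 and changed sign among the alternatives. With library sizes alone, 2397 genes fell in non-stimulated cells against 3615 with TMM factors, and 52 pathway list genes rose there against 30. The cause was not tested. The replicate numbers showed no pairing of the samples. For this, each gene's group mean was subtracted from its log2 CPM, and what remained was correlated between libraries of different groups. Same-numbered libraries then correlated between -0.04 and 0.02 (18 pairs, 0 over 0.1). Libraries with different numbers correlated between -0.04 and 0.03 (36 pairs, 0 over 0.1). With the replicate block 8 of the 8 genes fell in stimulated cells, where 2238 genes fell and 2272 rose, and 3557 fell and 2502 rose in non-stimulated cells. Depth limits Tlr7 and Pfpl in Batf3 stimulated cells, at 5 to 7 and 3 to 9 counts a library. It also limits Car5b in control stimulated cells, at 2 to 6 counts a library. Every pair of replicates differed by more than sampling noise (chi-square per gene 1.46 to 3.16).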
